A study of Mus musculus with 17 samples.

Results

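The comparison set mouse bone marrow progenitors that lacked both copies of Tet2 against progenitors with both copies intact, on a background with no other engineered change named in the labels. The Tet2 KO group held 3 libraries of genotype URE+/+;Tet2-/-, and the WT group held 3 libraries of genotype URE+/+;Tet2+/+. All 6, of 17 in the series, carried the disease label Normal, and they were chosen by genotype alone. The 3 URE+/+;Tet2+/- libraries (Tet2 het) and the 3 UREΔ/+;Tet2+/+ libraries (URE het), also Normal, were fitted beside them and served to estimate the spread and the difference between ranges of sample titles. URE is an upstream enhancer of Spi1, the gene of the transcription factor PU.1, and both of its copies were intact in Tet2 KO and in WT. The cells were sorted as cKit+ Lymph- Ery- HSPC, that is, haematopoietic stem and progenitor cells that carry the receptor Kit and lack lymphoid and erythroid surface markers. The labels do not say how the Tet2 allele was made, whether the deletion was confined to blood cells, the age or sex of the mice, or whether each library came from its own mouse. The p-values therefore measure the spread between these libraries, which may be technical.

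Tet2 encodes a dioxygenase that oxidises 5-methylcytosine in DNA, a first step in removing methylation from enhancers and promoters, and it works beside its relatives Tet1 and Tet3 and opposite the DNA methyltransferases. In human blood, loss-of-function mutations of TET2 are common in clonal haematopoiesis and in myeloid leukaemia. In mice, Tet2 loss is known for expanding stem and progenitor cells over time without producing acute leukaemia by itself in most animals.

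Total counts over genes were 26.0, 33.2 and 32.2 M in the 3 Tet2 KO libraries, against 29.9, 33.6 and 29.3 M in the 3 WT libraries. Sample titles are numbered, and the libraries numbered 1 to 7 differed from those numbered 8 to 17 in 6655 of 18282 genes tested (36.4%) by edgeR's quasi-likelihood F test at an adjusted p under 0.05. Tet2 KO had 1 library in the lower range (library 1) and 2 in the upper (libraries 2 and 3), while WT had 2 in the lower (libraries 1 and 2) and 1 in the upper (library 3). The range of titles was therefore a term of the fit, and the 4 pairs of a Tet2 KO and a WT library inside a range are given beside the fitted values. By Xist and Y-linked transcripts, 2 Tet2 KO libraries (1 and 3) and 1 WT library (3) were male, so that within the lower range the Tet2 KO library was male and both WT libraries female, and genotype and sex cannot be told apart there. The sorted identity held in both groups for the receptor used to sort: Kit had 151, 186 and 175 CPM (counts per 1 M, with library sizes corrected by trimmed means) in Tet2 KO, against 136, 120.4 and 161 CPM in WT. Mpo, the peroxidase of granulocyte progenitors, had 5124, 5842 and 6521 CPM in Tet2 KO, against 6470, 4393 and 3568 CPM in WT.

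Tet2 RNA was lower in the 3 Tet2 KO libraries than in any WT library, but it was not absent and its difference did not pass the test across all genes. Tet2 (ENSMUSG00000040943.12, chromosome 3, 133463679 to 133545139, GRCm38) had 79.9, 80.5 and 86.0 CPM in Tet2 KO, against 132, 107 and 117 CPM in WT. The groups did not overlap, and the Tet2 het libraries, at 92.5, 114 and 108 CPM, were all above the Tet2 KO libraries and reached into the WT range. The mean was 82.1 ± 3.36 CPM in Tet2 KO, 104.7 ± 10.9 CPM in Tet2 het and 119 ± 12.5 CPM in WT (SD, n = 3 each), which put Tet2 KO 1.49-fold below WT in the fit. The log2 fold change was -0.58 ± 0.14 (SE), with an adjusted p of 0.297 by edgeR over all genes tested. Counts cover the whole gene, so RNA that still carries part of the locus is counted in them, and an antisense transcript (Gm42567) is annotated across the gene, from which reads could not be told apart without a known strand.

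Spi1, the gene that the URE controls, had 136, 62.7 and 52.0 CPM in Tet2 KO, against 105.4, 121 and 55.7 CPM in WT. The libraries numbered 1 to 7 were high and those numbered 8 to 17 low in both groups, and within each range the groups differed little. The log2 fold change between Tet2 KO and WT was 0.13 ± 0.13 (SE), with an adjusted p of 0.795 by edgeR, and the difference between ranges was -1.07 on the same scale. The sign of the Tet2 KO value turned to -0.17 when the range was left out of the fit.

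**Figure D1:**
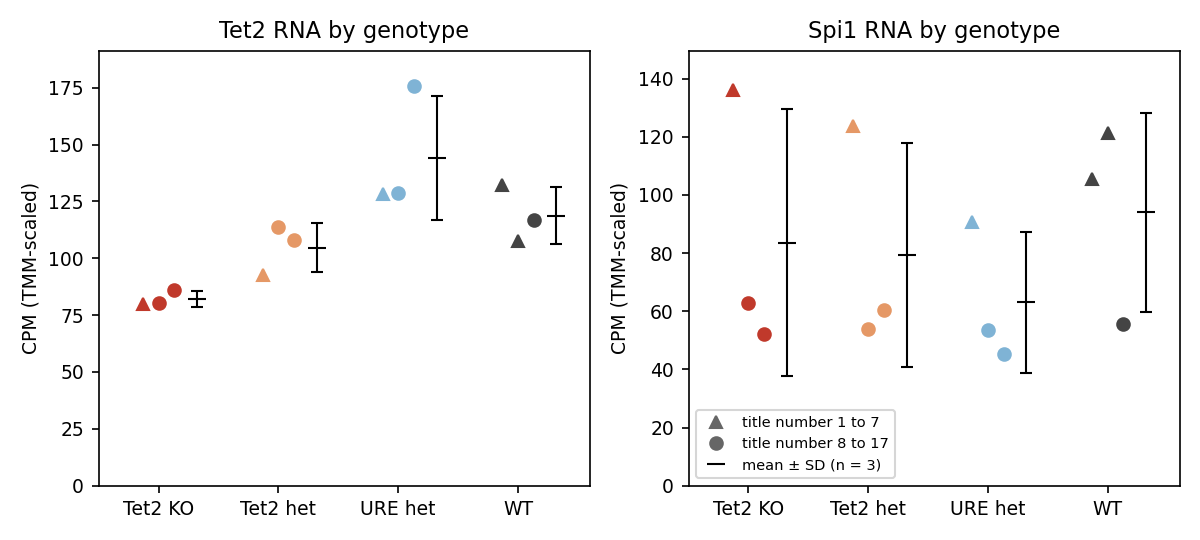
CPM of Tet2 (left panel) and Spi1 (right panel) in each library of the 4 Normal genotypes, with the mean ± SD of 3 libraries beside the points; triangles are title numbers 1 to 7 and circles 8 to 17. The 3 Tet2 KO libraries sit at 79.9 to 86.0 CPM of Tet2, below the 3 WT libraries at 107 to 132 CPM, whereas the Spi1 values separate by title range and not by genotype.

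Across the whole transcriptome no gene passed the threshold: edgeR called 0 of 18282 genes (0%) at an adjusted p under 0.05, and the smallest adjusted p was 0.0657. At an unadjusted p under 0.05 there were 1584 genes (8.66%), 703 higher (3.85%) and 881 lower (4.82%) in Tet2 KO. DESeq2 on the same counts, filter and design called 113 genes (0.618%), 16 higher and 97 lower, and limma's voom called 0. The differences were centred near 0, with a median log2 fold change of -0.01 and 9455 genes (51.7%) below 0. The median SE was 0.26 on the log2 scale over all genes tested and 0.18 over the 12169 genes that averaged 1 log2 CPM or more, and 98.1% of these 12169 genes had a log2 fold change smaller than 1 in either direction. All 3 Tet2 KO libraries lay above all 3 WT libraries in 772 genes (4.22%) and below them in 961 (5.26%).

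**Figure D2:**
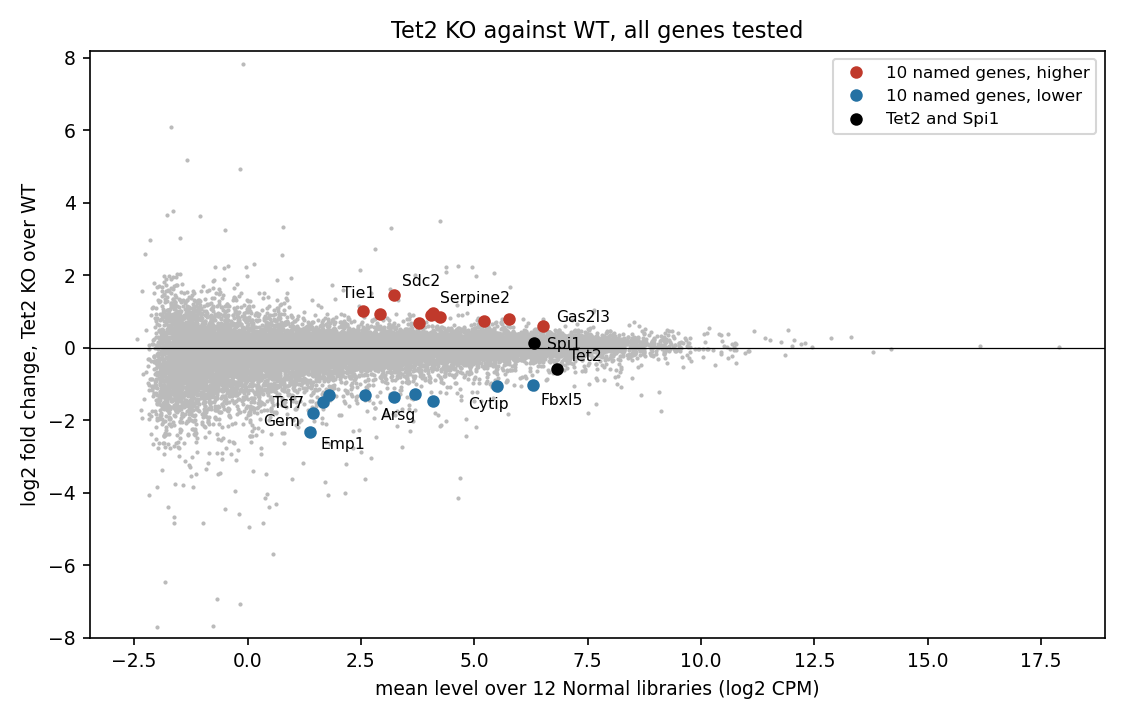
Log2 fold change of Tet2 KO over WT (vertical axis) against the mean level over the 12 Normal libraries in log2 CPM (horizontal axis), with 1 point per gene tested. The coloured points are the 10 genes chosen by rule in each direction, none of which passed an adjusted p of 0.05 by edgeR. They had the smallest p among genes that met the rule's other conditions, not among all genes plotted. The 2 black points are Tet2 at -0.58 and Spi1 at 0.13.

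With no gene past the threshold, the genes described next are the 10 of smallest p in each direction among those averaging 1 log2 CPM or more whose 4 within-range pairs of libraries all pointed the same way. Over all genes tested, 2516 (13.8%) had 4 of 4 pairs higher in Tet2 KO and 2732 (14.9%) had 4 of 4 lower. The chosen genes are given as values that did not pass edgeR's test.

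Among the 10 genes with higher values in Tet2 KO were a heparan sulphate proteoglycan, a receptor tyrosine kinase and an adhesion protein of the cell surface, a secreted protease inhibitor, a cytoskeletal linker and 2 histone genes. Sdc2 (chromosome 15, 32920723 to 33034935, GRCm38), which encodes the proteoglycan syndecan-2, had 9.85, 21.6 and 11.8 CPM in Tet2 KO, against 4.70, 3.64 and 5.17 CPM in WT. Every Tet2 KO library exceeded every WT library, and the fitted difference was 2.77-fold, a log2 fold change of 1.47 ± 0.24 (SE) with an adjusted p of 0.173 by edgeR. The value was 1.24 within title numbers 1 to 7 and 1.69 within 8 to 17. The URE het libraries had 10.4, 15.1 and 10.6 CPM, inside the Tet2 KO span, and the Tet2 het libraries 4.22, 7.32 and 6.95 CPM. Tie1, a receptor tyrosine kinase best known from endothelium, had 8.29, 9.69 and 9.56 CPM in Tet2 KO, against 4.61, 3.49 and 5.17 CPM in WT. The gap between the groups was wider than the spread inside either, at a log2 fold change of 1.03 ± 0.25 and an adjusted p of 0.302. Serpine2, a secreted inhibitor of serine proteases, had 26.5, 25.1 and 17.2 CPM in Tet2 KO, against 12.7, 13.1 and 13.2 CPM in WT. The 3 WT libraries were nearly alike and the log2 fold change was 0.84 ± 0.17. The Tet2 het libraries averaged 13.01 ± 0.63 CPM, near WT, and the URE het libraries 26.6 ± 3.82 CPM (SD, n = 3 each), above the Tet2 KO mean.

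Gas2l3, a linker of actin and microtubules that acts in cytokinesis, had 115, 116 and 91.6 CPM in Tet2 KO, against 74.6, 72.6 and 65.9 CPM in WT. Its groups did not overlap, and its log2 fold change was 0.61 ± 0.12. The Tet2 het mean of 88.5 ± 2.36 CPM and the URE het mean of 100.8 ± 8.98 CPM (SD, n = 3 each) both lay between the means of Tet2 KO and WT. Tagap had 48.0, 50.7 and 39.7 CPM in Tet2 KO, against 28.9, 28.6 and 25.1 CPM in WT. Here too no library of 1 group reached into the other, at a log2 fold change of 0.73 ± 0.17. Gk5, a member of the glycerol kinase family, had 25.1, 15.9 and 12.4 CPM in Tet2 KO, against 11.9, 10.2 and 8.97 CPM in WT. The lowest Tet2 KO library exceeded the highest WT library by less than the spread inside Tet2 KO. The URE het libraries averaged 22.5 CPM, above the Tet2 KO mean of 17.8 CPM, and the Tet2 het libraries 14.8 CPM. Cxadr, an adhesion protein that coxsackie and adenoviruses use as a receptor, had 7.80, 14.5 and 9.03 CPM in Tet2 KO, against 5.07, 4.74 and 5.37 CPM in WT, and a coding gene on the other strand, Btg3, overlaps it.

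The remaining 3 genes with higher values were Hist1h4a, Hist1h2bp and Smtn. Hist1h4a, a copy of the histone H4 gene, had 14.2, 20.5 and 16.6 CPM in Tet2 KO, against 7.09, 6.36 and 10.1 CPM in WT, but the Tet2 het libraries, at 22.9 ± 9.46 CPM, and the URE het libraries, at 20.3 ± 6.67 CPM (SD, n = 3 each), averaged higher than either. Hist1h2bp, a copy of the histone H2B gene, had 93.6, 49.2 and 31.6 CPM in Tet2 KO, against 43.8, 45.7 and 26.2 CPM in WT, so that the groups overlapped and only pairs inside a range all pointed the same way. Copies of a histone gene are near-identical in sequence and their RNA is mostly not polyadenylated, so the split of reads among them is uncertain in libraries of polyadenylated RNA. Smtn, which encodes the smooth-muscle cytoskeletal protein smoothelin, had 23.3, 11.1 and 9.32 CPM in Tet2 KO, against 12.3, 13.3 and 6.75 CPM in WT, also with overlap.

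The 10 genes with lower values in Tet2 KO included the smallest p among the genes chosen by rule. Arsg (chromosome 11, 109473374 to 109573330, GRCm38), a lysosomal sulphatase, had 7.04, 3.31 and 2.17 CPM in Tet2 KO, against 14.7, 18.4 and 7.39 CPM in WT. The Tet2 KO libraries were lower in each range, and the fitted difference was 2.56-fold, a log2 fold change of -1.36 ± 0.19 (SE) with an adjusted p of 0.0657 by edgeR. A coding gene on the opposite strand, Slc16a6, overlaps Arsg. Sfxn5, a mitochondrial carrier of the sideroflexin family, had 12.1, 5.19 and 5.98 CPM in Tet2 KO, against 25.0, 31.1 and 14.7 CPM in WT. Its groups did not overlap, and its log2 fold change was -1.27 ± 0.20 with an adjusted p of 0.107, at -1.22 within title numbers 1 to 7 and -1.39 within 8 to 17. The URE het mean of 9.55 CPM and the Tet2 het mean of 10.7 CPM lay nearer the Tet2 KO mean of 7.74 CPM than the WT mean of 23.6 CPM.

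Cytip, an adaptor that binds cytohesins and restrains leukocyte adhesion, had 30.6, 31.3 and 28.8 CPM in Tet2 KO, against 63.1, 79.3 and 57.0 CPM in WT. The Tet2 het mean of 41.8 ± 2.29 CPM and the URE het mean of 42.9 ± 14.2 CPM both lay between 30.2 ± 1.26 CPM in Tet2 KO and 66.5 ± 11.6 CPM in WT (SD, n = 3 each), and the log2 fold change between Tet2 KO and WT was -1.05 ± 0.20. Fbxl5, the iron-sensing part of a ubiquitin ligase that degrades an iron regulatory protein, had 56.9, 58.1 and 49.1 CPM in Tet2 KO, against 92.2, 129 and 118 CPM in WT. These 3 Tet2 KO libraries were close together in spite of their title ranges, and the log2 fold change was -1.01 ± 0.19. The genes Bst1 and Gm43181, among others, overlap the span of Fbxl5. Emp1, a membrane protein of the tetraspan type, had 0.65, 0.73 and 1.23 CPM in Tet2 KO, against 3.78, 4.07 and 4.43 CPM in WT. The fitted difference, 5.01-fold, was the widest of the 20 genes, at a log2 fold change of -2.32 ± 0.45.

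Gem, a small GTP-binding protein that inhibits voltage-gated calcium channels, had 1.64, 0.66 and 1.11 CPM in Tet2 KO, against 5.31, 6.54 and 3.12 CPM in WT. All 3 Tet2 KO libraries lay under the lowest WT library, with a log2 fold change of -1.81 ± 0.34. Tcf7, a transcription factor of T lymphoid progenitors, had 1.48, 1.82 and 1.495 CPM in Tet2 KO, against 3.04, 2.60 and 6.85 CPM in WT. Its WT library 3 was far above the other two, so that the log2 fold change of -1.48 ± 0.30 was made of -0.93 within title numbers 1 to 7 and -2.05 within 8 to 17. Mmp25, a membrane-anchored metalloproteinase of leukocytes, had 14.1, 4.33 and 2.61 CPM in Tet2 KO, against 24.6, 37.4 and 12.7 CPM in WT. Cyp4f18, which hydroxylates leukotriene B4, had 5.86, 1.39 and 1.94 CPM in Tet2 KO, against 8.14, 12.7 and 6.05 CPM in WT. Slc37a3, of the sugar phosphate exchanger family, had 3.19, 1.19 and 1.26 CPM in Tet2 KO, against 5.25, 6.94 and 4.20 CPM in WT. In these 3 genes the libraries numbered 8 to 17 were lower than those numbered 1 to 7 in both genotypes, and Mmp25 alone of them overlapped between groups. The fitted difference of 8 to 17 over 1 to 7 was -1.78 on the log2 scale for Mmp25, -1.37 for Cyp4f18 and -1.08 for Slc37a3, beside differences of Tet2 KO over WT of -1.46, -1.31 and -1.31 for the same genes. Arsg and Sfxn5 were also lower in the upper range, at -1.18 and -1.12.

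**Figure D3:**
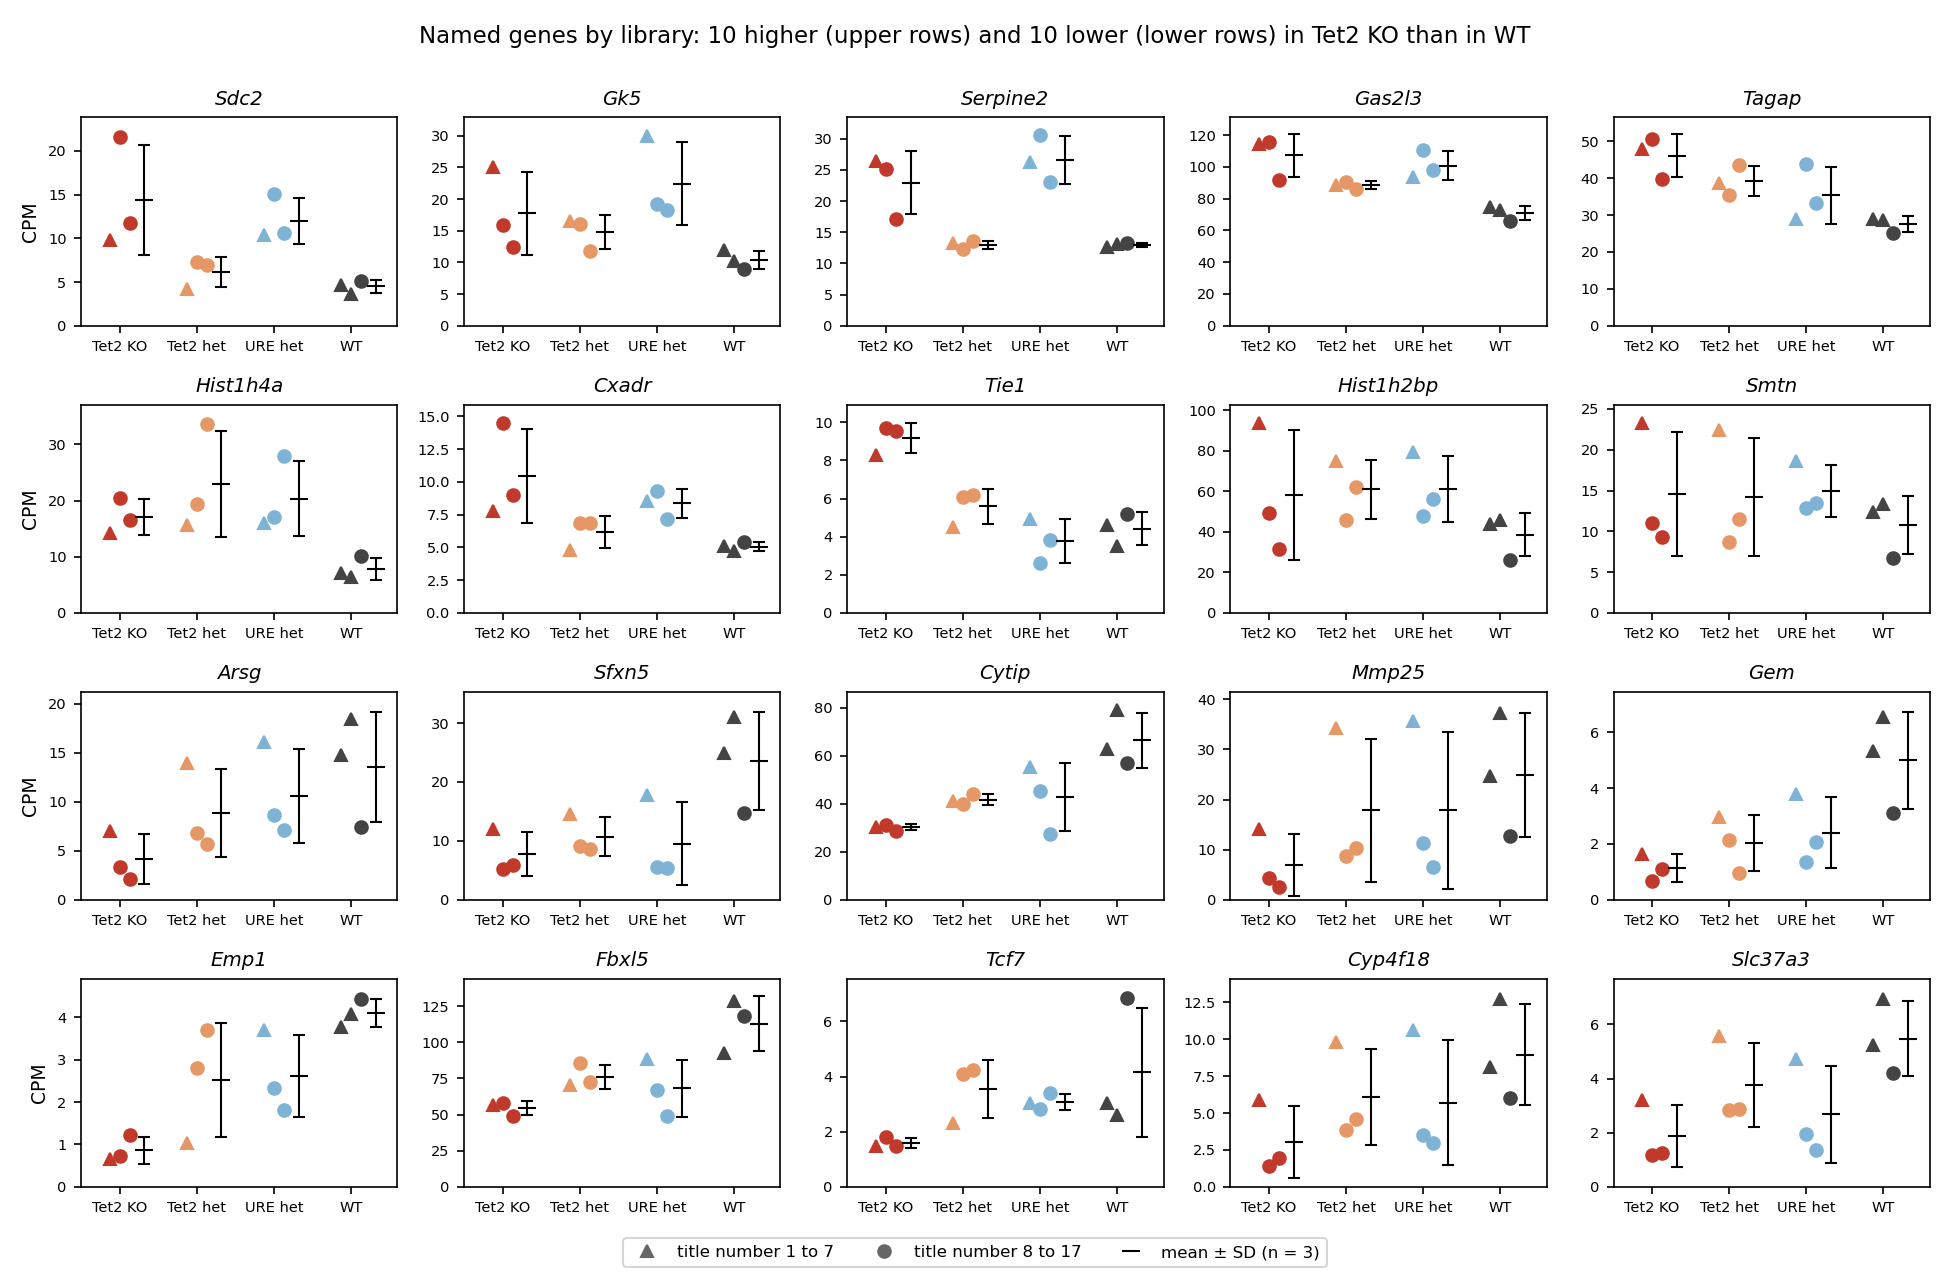
CPM of the 20 genes in each Tet2 KO, Tet2 het, URE het and WT library, 1 panel per gene with its own axis from 0, and the mean ± SD of 3 libraries beside the points; triangles are title numbers 1 to 7 and circles 8 to 17. Tet2 KO and WT do not overlap in 17 of the panels, the exceptions being Hist1h2bp, Smtn and Mmp25, against 4.22% of all genes above and 5.26% below. The genes were chosen by small p and agreeing pairs in these same libraries, which favours a lack of overlap. Serpine2 averages 22.9 CPM in Tet2 KO, 13.01 CPM in Tet2 het, 26.6 CPM in URE het and 12.98 CPM in WT.

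Beside Tet2, the genes that write, read or remove DNA methylation had no shared direction. Of 24 listed genes 23 were tested, 0 were called (0% over all genes), 12 lay above 0 and 11 below, and their median log2 fold change was 0.01, against -0.01 over all genes. Tet3, another TET dioxygenase, had 116, 97.2 and 89.5 CPM in Tet2 KO, against 96.5, 85.0 and 78.1 CPM in WT, a log2 fold change of 0.28 ± 0.12 with an adjusted p of 0.557 by edgeR. The 2 groups overlapped although every pair inside a range was higher in Tet2 KO. Tet1 had 47.2, 58.1 and 58.4 CPM in Tet2 KO, against 68.6, 55.6 and 61.3 CPM in WT. The maintenance methyltransferase Dnmt1 had 369, 245 and 240.0 CPM in Tet2 KO, against 297, 207 and 219 CPM in WT, and the de novo methyltransferase Dnmt3a had 97.9, 56.2 and 57.8 CPM, against 98.3, 78.7 and 53.2 CPM. Neither separated the groups. These and the other members of lists that are named below were picked after their values were seen.

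Classes of genes that DNA methylation is known to hold silent gave few values to read. Of 20 germline genes 2 had enough counts to be tested. The RNA helicase gene Ddx4 had 0.08, 0.23 and 0.09 CPM in Tet2 KO, against 0.86, 0.58 and 0.13 CPM in WT, and Brdt had 0.61, 0.56 and 0.76 CPM, against 0.31, 0.28 and 0.81 CPM. Both overlapped between groups. Of 20 imprinted genes 13 were tested, with 6 above 0, 7 below and a median log2 fold change of -0.10, which was 0.05 without WT library 3. Plagl1, an imprinted zinc finger gene, had 0.08, 2.68 and 0.35 CPM in Tet2 KO, against 0.09, 0.24 and 0.10 CPM in WT, so that its log2 fold change of 2.24 ± 1.10 came mostly from Tet2 KO library 2.

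Among stem cell genes, 29 of 30 were tested, 22 lay below 0 and 7 above, and the median log2 fold change was -0.27, but 0.05 without WT library 3. In 4 of them (Mecom, Gata2, Txnip and Gata3) all Tet2 KO libraries were below all WT libraries, and in 0 above, against 5.26% and 4.22% over all genes. Mecom, a zinc finger factor needed by long-term stem cells, had 3.42, 4.73 and 5.39 CPM in Tet2 KO, against 6.33, 9.51 and 11.2 CPM in WT, a log2 fold change of -1.01 ± 0.38 with an adjusted p of 0.513 by edgeR. Gata2, a factor of stem cells and of the mast cell lineage, had 4.49, 3.41 and 4.75 CPM in Tet2 KO, against 7.46, 7.61 and 9.30 CPM in WT, at -0.89 ± 0.32. Neither pair of groups overlapped. Other stem cell genes did not separate: Hlf had 30.4, 38.7 and 36.7 CPM in Tet2 KO, against 33.2, 34.9 and 54.3 CPM in WT. The median level of the stem cell list was 1.782, 2.12 and 2.436 log2 CPM in Tet2 KO, against 2.18, 2.932 and 3.22 log2 CPM in WT. It was 2.712, 2.025 and 1.603 log2 CPM in URE het and 2.601, 2.507 and 3.132 log2 CPM in Tet2 het.

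The Hox, Meis and Pbx genes, homeobox factors of early progenitors, had a median log2 fold change of -0.27 over 12 of 15 genes tested. Of these 8 lay below 0 and 4 above, and the median was -0.02 without WT library 3. Their median level was 1.798, 1.807 and 1.914 log2 CPM in Tet2 KO, against 2.28, 2.414 and 2.479 log2 CPM in WT. It was 2.315, 1.466 and 1.1 log2 CPM in URE het and 2.333, 2.273 and 2.489 log2 CPM in Tet2 het. Hoxa9 had 3.50, 4.26 and 5.16 CPM in Tet2 KO, against 5.19, 7.46 and 13.1 CPM in WT, and its log2 fold change was -1.03 ± 0.37 with an adjusted p of 0.513. The highest Tet2 KO library lay just under the lowest WT library. Pbx3, a cofactor of Hox proteins, went the other way, with 9.47, 10.2 and 8.33 CPM in Tet2 KO, against 5.96, 6.12 and 7.42 CPM in WT, at 0.53 ± 0.20. Among 28 haematopoietic transcription factors the median was -0.13, with 18 below 0 and 10 above. Myb, a factor of proliferating progenitors, had 418, 503 and 473 CPM in Tet2 KO, against 468, 416 and 479 CPM in WT, and Runx1 had 152, 148 and 142 CPM, against 176, 164 and 148 CPM.

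Low-level transcripts of lymphoid cells made the widest list difference of the comparison. All 19 B cell genes tested, of 20 listed, had log2 fold changes below 0, with a median of -1.19, and 8 of them had every Tet2 KO library below every WT library, against 5.26% of all genes. Dntt, the terminal transferase of lymphoid progenitors, had 17.7, 6.12 and 14.2 CPM in Tet2 KO, against 31.8, 30.4 and 43.6 CPM in WT. The lowest WT library was well above the highest Tet2 KO library, and the log2 fold change was -1.44 ± 0.42 with an adjusted p of 0.434 by edgeR. Cd79a, a chain of the B cell receptor complex, had 0.46, 0.23 and 0.47 CPM in Tet2 KO, against 1.44, 2.11 and 1.24 CPM in WT. Ebf1, which specifies the B lineage, had 0.65, 0.23 and 0.79 CPM in Tet2 KO, against 2.15, 3.33 and 1.21 CPM in WT. Pax5, which commits cells to it, had 0.27, 0.46 and 0.18 CPM in Tet2 KO, against 2.67, 4.77 and 0.71 CPM in WT. In these 3 genes the groups did not overlap and the levels were low throughout, and Cd79b, the partner of Cd79a, did not separate, with 7.34, 9.62 and 9.62 CPM in Tet2 KO, against 9.21, 11.1 and 7.72 CPM in WT. The median of the list was -0.55 within title numbers 1 to 7, where 17 of its genes were tested, and -1.18 within 8 to 17, where 19 were. The median level of its genes was -0.593, -1.062 and -0.308 log2 CPM in Tet2 KO, against 0.894, 1.129 and 0.332 log2 CPM in WT. In URE het, with both Tet2 copies, it was as low, at -0.494, -0.97 and -1.254 log2 CPM. In Tet2 het it was -0.395, 0.862 and 0.35 log2 CPM. The sort removed cells with lymphoid surface markers, and in bulk RNA fewer cells of a type and less of an RNA per cell cannot be told apart.

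T and NK cell genes gave a like picture, with a median log2 fold change of -1.004 over 17 of 20 genes tested, 16 below 0 and 1 above, and 8 without overlap, against 5.26% of all genes below and 4.22% above. The median was -0.43 within title numbers 1 to 7, -1.62 within 8 to 17 (16 genes tested there) and -1.70 without Tet2 KO library 1. The median level of these genes was 0.43, -0.71 and -0.958 log2 CPM in Tet2 KO, against 0.964, 0.815 and 1.069 log2 CPM in WT. It was 0.49, 0.226 and -0.05 log2 CPM in URE het, also below WT, and 0.964, 1.038 and 1.341 log2 CPM in Tet2 het. Besides Tcf7, the kinase gene Lck had 1.33, 0.79 and 1.14 CPM in Tet2 KO, against 2.09, 1.59 and 2.72 CPM in WT, and the chemokine gene Ccl5 had 3.19, 1.49 and 0.56 CPM, against 4.48, 7.43 and 6.85 CPM. Both were lower in each Tet2 KO library than in any WT library. Cd3d, a chain of the T cell receptor complex, was the member above 0, with 4.56, 0.40 and 1.55 CPM in Tet2 KO, against 1.93, 2.78 and 0.77 CPM in WT.

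The mast cell, basophil and eosinophil genes had lower median values in both title ranges, at -0.90 within numbers 1 to 7 and -0.75 within 8 to 17. Their summed level overlapped, with 802, 1268 and 1187 CPM in Tet2 KO, against 1014, 1195 and 1049 CPM in WT. Within numbers 8 to 17 the sum was higher in Tet2 KO than in WT. The median level of these genes was 3.222, 3.117 and 3.603 log2 CPM in Tet2 KO, against 4.819, 4.699 and 3.874 log2 CPM in WT. It was 4.443, 4.265 and 2.329 log2 CPM in URE het and 3.32, 3.724 and 4.272 log2 CPM in Tet2 het. Of these libraries, some were below and others above the WT libraries of their title range. Over 17 of 20 genes tested the median log2 fold change was -0.85, 16 lay below 0 and 1 above, and 9 had no overlap between the groups, against 5.26% of all genes below and 4.22% above. Ms4a2, a chain of the high-affinity receptor for IgE, had 10.3, 12.7 and 12.1 CPM in Tet2 KO, against 28.2, 30.9 and 24.8 CPM in WT. The gap between the groups exceeded the spread inside each of them, and the log2 fold change was -1.22 ± 0.34 with an adjusted p of 0.423 by edgeR. Cpa3, the mast cell carboxypeptidase, had 62.3, 39.6 and 49.4 CPM in Tet2 KO, against 82.4, 93.8 and 98.2 CPM in WT. Hdc, which makes histamine, had 96.0, 76.6 and 43.7 CPM in Tet2 KO, against 127, 286 and 99.6 CPM in WT. None of these 3 genes overlapped between groups, but the basophil protease Mcpt8 did, with 49.7, 26.0 and 29.6 CPM in Tet2 KO, against 39.6, 46.1 and 32.2 CPM in WT. The mast cell proteases Cma1, Tpsb2 and Tpsab1 had too few counts to be tested.

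Erythroid genes had a median log2 fold change of -0.37 over 20 genes, with 18 below 0, and of -0.68 without Tet2 KO library 3 or WT library 1 and -0.66 without Tet2 KO library 1. The adult globin gene Hbb-bs had 2.32, 0.53 and 2.11 CPM in Tet2 KO, against 13.9, 20.2 and 6.25 CPM in WT, a log2 fold change of -2.88 ± 0.90 with an adjusted p of 0.473. Reads of Hbb-bs and its near-copy Hbb-bt are hard to assign, and both sets of libraries carried little of either, with red cells lysed before the sort. Megakaryocyte genes had a median of 0.01 over 12 of 15 genes tested.

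Genes of the granulocyte and monocyte path had list medians near 0 that moved with the libraries. For the 20 genes of primary granules and granulocyte-monocyte progenitors (GMP) the median log2 fold change was 0.09, with 14 above 0 and 6 below. It was -0.07 within title numbers 1 to 7 and 0.48 within 8 to 17, and 0.33 without WT library 1 and -0.09 without WT library 3. Fcnb, a ficolin of immature granulocytes, had 373, 229.9 and 166 CPM in Tet2 KO, against 203.5, 122.9 and 98.7 CPM in WT, and its log2 fold change was 0.99 ± 0.29 with an adjusted p of 0.423. The groups overlapped, though each pair inside a range was higher in Tet2 KO. Elane, neutrophil elastase, had 598, 769 and 854 CPM in Tet2 KO, against 847, 545 and 429.6 CPM in WT, with no separation. The 16 late neutrophil genes had a median of -0.07 (-0.32 without Tet2 KO library 1, 0.17 without Tet2 KO library 3) and were abundant, summing to 29000 to 61250 CPM in Tet2 KO, against 33290 to 58340 CPM in WT. Retnlg, a resistin-like gene of mature neutrophils, had 576, 119.7 and 145 CPM in Tet2 KO, against 922, 1935 and 581 CPM in WT, a log2 fold change of -1.73 ± 0.53 with an adjusted p of 0.463. The 23 monocyte and dendritic genes had a median of 0.09, with 14 above 0, and of 0.29 without Tet2 KO library 2 and 0.27 without WT library 2. Ccr2, a monocyte chemokine receptor, had 157, 58.5 and 91.4 CPM in Tet2 KO, against 63.6, 66.8 and 55.4 CPM in WT, and Batf3, a factor of cross-presenting dendritic cells, had 0.15, 0.07 and 0.03 CPM, against 0.49, 0.49 and 0.24 CPM. The 10 MHC class II genes tested pointed in opposite directions in the 2 ranges, with medians of 0.91 within numbers 1 to 7 and -0.72 within 8 to 17, and a pooled median of -0.52 without Tet2 KO library 1 and 0.60 without WT library 3. Stromal and endothelial genes, which mark cells outside the blood lineage, were near the floor, with 8 of 18 not tested and a median of -0.37 over the other 10 (-0.81 without Tet2 KO library 3, -0.14 without Tet2 KO library 1, -0.13 without WT library 2), and Tie1 is not in that list.

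**Figure D4:**
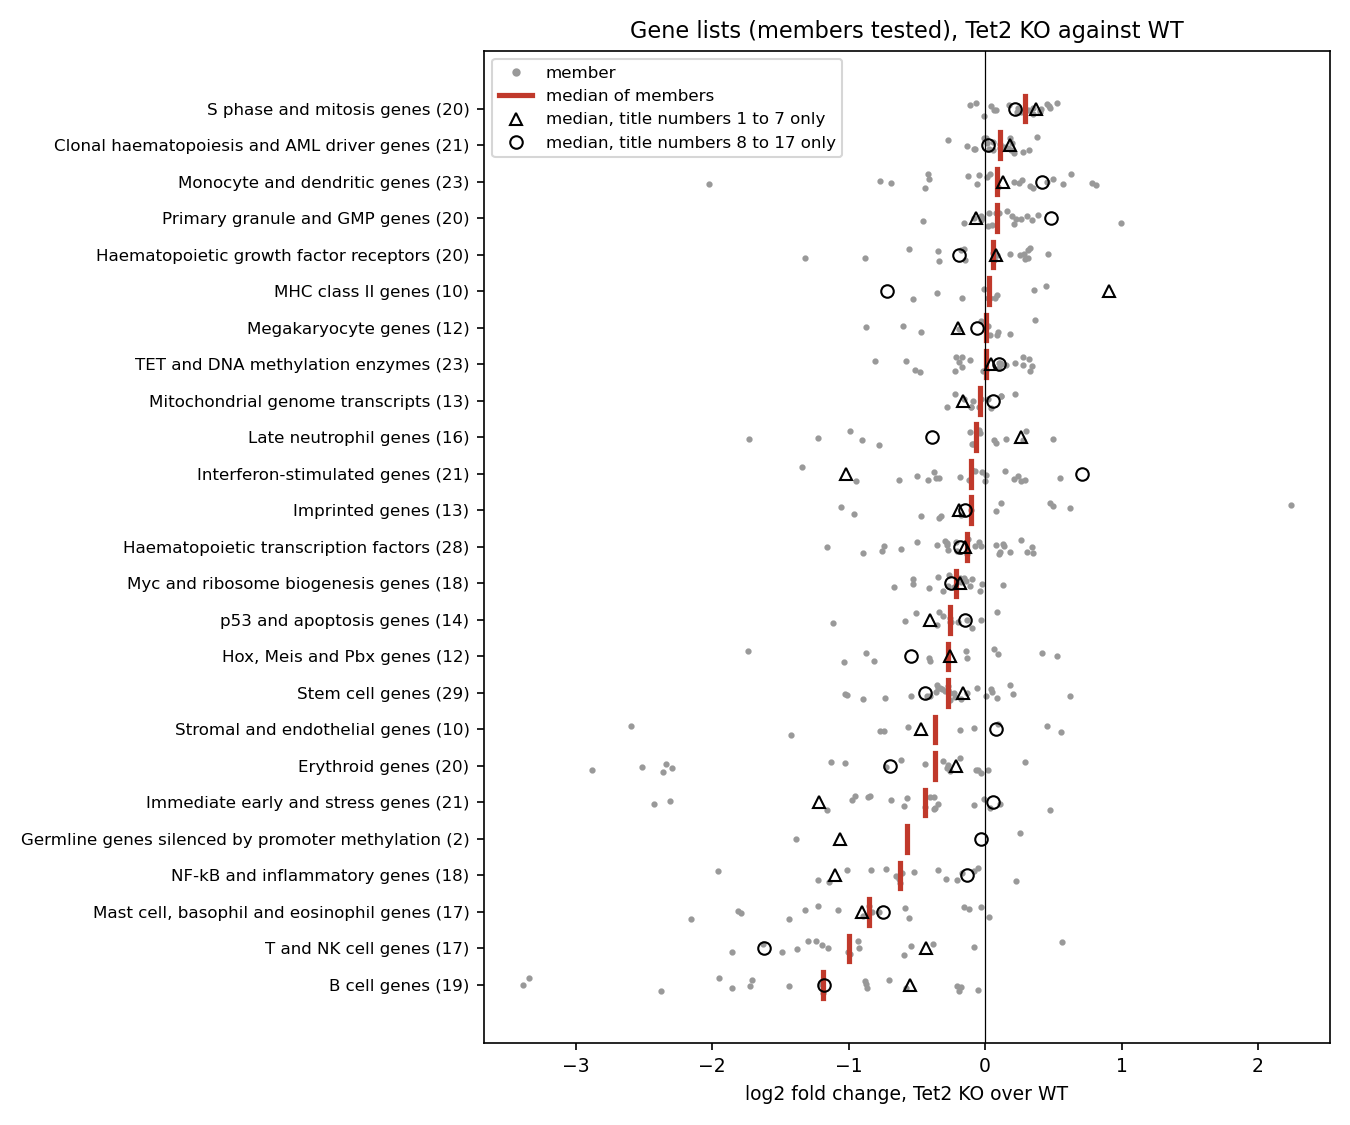
Log2 fold changes of Tet2 KO over WT for the tested members of 25 gene lists (grey points, number tested in brackets), with the median of each list as a red bar and its median within title numbers 1 to 7 (triangle) and 8 to 17 (circle). B cell, T and NK cell, and mast cell, basophil and eosinophil genes lie furthest below 0, at medians of -1.19, -1.004 and -0.85. S phase and mitosis genes lie furthest above 0, at 0.29. Within a title range the number of members tested can differ from that in brackets.

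Cell cycle genes leaned towards higher values in Tet2 KO by small amounts. The median log2 fold change of 20 S phase and mitosis genes was 0.29, with 17 above 0 and 3 below. It was 0.37 within title numbers 1 to 7 and 0.22 within 8 to 17. The median level of these genes was 6.822, 6.648 and 6.496 log2 CPM in Tet2 KO, against 6.438, 6.361 and 6.333 log2 CPM in WT. It was 6.504, 6.786 and 6.507 log2 CPM in URE het and 6.597, 6.401 and 6.479 log2 CPM in Tet2 het. Every library of these other genotypes lay above the WT libraries of its title range too. Ccnb1, a cyclin of mitotic entry, had 85.0, 87.5 and 78.5 CPM in Tet2 KO, against 63.9, 56.9 and 67.9 CPM in WT, a log2 fold change of 0.40 ± 0.15 with an adjusted p of 0.509 by edgeR. Its groups did not overlap, and neither did those of Ccnb2, Ccna2 and Bub1, against 4.22% of all genes above. Aurkb, a kinase of chromosome segregation, had 122, 78.4 and 71.1 CPM in Tet2 KO, against 81.3, 73.9 and 60.6 CPM in WT, with overlap. Mki67, the proliferation marker, had 3714, 2000 and 1533 CPM in Tet2 KO, against 2206, 1799 and 1696 CPM in WT. Among the libraries of these groups it was high in Tet2 KO library 1 alone.

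Myc and ribosome biogenesis genes leaned the other way. All but 1 of 18 genes lay below 0, with a median log2 fold change of -0.21, and 5 had no overlap between the groups (Myc, Npm1, Nop58, Nolc1 and Odc1), against 5.26% of all genes below and 4.22% above. The median was -0.08 without Tet2 KO library 2. The summed level of the list was 2978, 2092 and 2737 CPM in Tet2 KO, against 3867, 3998 and 3103 CPM in WT. It was also below WT in the other genotypes, at 2752, 1898 and 2010 CPM in URE het and 2868, 2351 and 1862 CPM in Tet2 het. Within each title range the URE het libraries were lower than the Tet2 KO libraries. Nop58, a small nucleolar ribonucleoprotein, had 135, 122 and 165 CPM in Tet2 KO, against 197, 206.5 and 207 CPM in WT. Odc1, the first enzyme of polyamine synthesis and a Myc target, had 104, 122 and 129 CPM in Tet2 KO, against 192, 248 and 194 CPM in WT. The WT libraries of both genes were all above the Tet2 KO libraries, and the log2 fold changes were -0.53 ± 0.18 and -0.67 ± 0.24 with adjusted p of 0.456 and 0.511 by edgeR. Myc itself had 166, 112 and 107.5 CPM in Tet2 KO, against 171.5, 179 and 171 CPM in WT, so that Tet2 KO library 1 was close to WT. Ncl, nucleolin, had 889.7, 486 and 626 CPM in Tet2 KO, against 1434, 1466 and 741 CPM in WT, lower in every pair within a range.

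**Figure D5:**
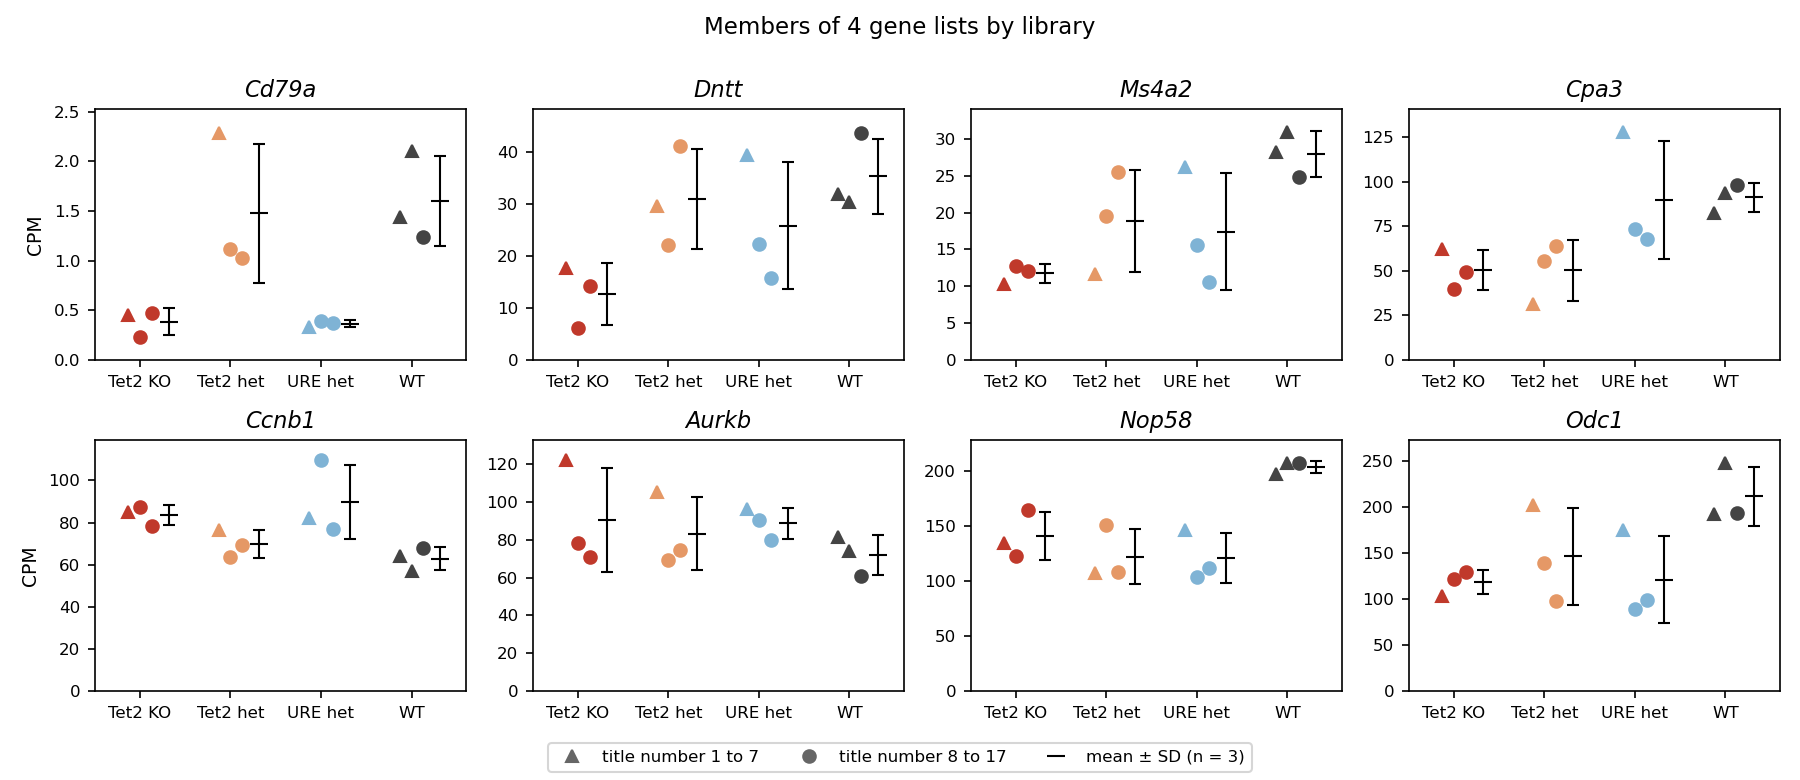
CPM of 8 members of 4 gene lists in each Tet2 KO, Tet2 het, URE het and WT library, with axes from 0 and the mean ± SD of 3 libraries beside the points; the genes are B cell (Cd79a, Dntt), mast cell (Ms4a2, Cpa3), mitosis (Ccnb1, Aurkb) and ribosome biogenesis or Myc target genes (Nop58, Odc1). The Tet2 KO points lie below all WT points in Cd79a, Dntt, Ms4a2, Cpa3, Nop58 and Odc1 and above them in Ccnb1, while Aurkb overlaps, and the URE het means of Cd79a (0.37 CPM), Ccnb1 (89.7 CPM) and Nop58 (120.3 CPM) lie on the Tet2 KO side of WT too.

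Genes of the acute stress and inflammatory response had lower values in Tet2 KO mainly in the libraries numbered 1 to 7. The 21 immediate early and stress genes tested had a median log2 fold change of -0.44, made of -1.22 within numbers 1 to 7 and 0.06 within 8 to 17, and the 18 NF-kB and inflammatory genes tested had -0.62, made of -1.10 and -0.13. Without Tet2 KO library 1 these medians were -0.24 and -0.19, and without WT library 2 they were -0.24 and -0.28, while the first list's median was -0.68 without Tet2 KO library 2 and -0.69 without Tet2 KO library 3 or WT library 1. WT library 2 was the high one: Egr1, an immediate early factor, had 224, 51.8 and 139.5 CPM in Tet2 KO, against 148, 732 and 84.5 CPM in WT. Fos had 264, 159 and 211 CPM in Tet2 KO, against 357, 874 and 90.6 CPM in WT. Their levels also followed the title range, with a median difference of 8 to 17 over 1 to 7 of -1.65 on the log2 scale for the first list and -1.21 for the second. Bcl3, an NF-kB cofactor, did not follow that pattern, with 2.74, 2.81 and 4.13 CPM in Tet2 KO, against 6.02, 5.87 and 9.30 CPM in WT, a log2 fold change of -1.23 ± 0.29 and an adjusted p of 0.276. Interferon-stimulated genes pointed in opposite directions in the 2 ranges, with medians of -1.02 within numbers 1 to 7 and 0.71 within 8 to 17. The 14 p53 and apoptosis genes tested had a median of -0.26, with 13 below 0. Mcl1, a survival factor of the Bcl2 family, had 205, 227 and 204 CPM in Tet2 KO, against 344.5, 482 and 248 CPM in WT, at -0.59 ± 0.20 with an adjusted p of 0.471.

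The 20 haematopoietic growth factor receptors had a median log2 fold change of 0.06 and the 13 mitochondrial transcripts one of -0.04. The 21 genes recurrently mutated in clonal haematopoiesis and myeloid leukaemia had a median of 0.11, with 16 above 0. Cbl, a ubiquitin ligase that turns over Kit and other receptors, had 268, 286 and 258 CPM in Tet2 KO, against 224, 186 and 229.7 CPM in WT, without overlap, at a log2 fold change of 0.32 ± 0.13 and an adjusted p of 0.522. In the fit of all 12 Normal libraries none of the 407 tested entries of the 25 lists passed an adjusted p of 0.05 by edgeR, 71 (17.4%) had an unadjusted p under 0.05, against 8.66% of all genes tested, and DESeq2 called 7, against 113 of all 18282 (0.618%). The lists were chosen with earlier results of these data known.

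A separate test asked whether the difference between Tet2 KO and WT was itself different in the 2 title ranges, and it called 2 of 18282 genes (0.0109%), with 1279 (7%) at an unadjusted p under 0.05. Both encode parts of immunoglobulins. Igha, the constant gene of IgA, had 104 CPM in Tet2 KO, against 164 and 189 CPM in WT, in numbers 1 to 7, and 13.3 and 12.5 CPM in Tet2 KO, against 94.4 CPM in WT, in numbers 8 to 17. The difference was wider in the upper range by 2.11 ± 0.24 on the log2 scale in the direction of lower Tet2 KO, with an adjusted p of 0.0436 by edgeR. Ighv5-9, a variable segment, had 0.49 CPM in the 1 Tet2 KO library of the lower range and 0 in both WT libraries there, and 0.07 and 0 CPM in Tet2 KO, against 16.2 CPM in WT, in the upper range. Its adjusted p was also 0.0436. The lower range holds 1 Tet2 KO library and the upper range 1 WT library, and with Tet2 KO library 2 or 3 or WT library 1 or 2 left out the test called 0 genes.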

How the data were processed

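Polyadenylated RNA of sorted bone marrow progenitors was sequenced from a low input. The authors deposited raw counts per feature without normalization; reads were aligned with STAR to GRCm38 per the submitters' processing notes, and the version, annotation, counting tool and strand setting are not given in the sources used here. Of 96004 rows, the 47643 gene rows were used; 47224 identifiers matched GENCODE vM21 without their version and 39106 with it. Of the 22 genes chosen by rule, 10 have an annotated gene on the opposite strand, and their reads cannot be assigned with certainty.

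Counts were scaled by TMM, filtered with filterByExpr (minimum count 10, minimum total 15) and tested in R 4.3.3 with edgeR 4.0.16 (robust quasi-likelihood F test, two-sided, Benjamini-Hochberg, threshold 0.05) over the 12 Normal libraries, with genotype and title range as terms and 7 residual degrees of freedom. SE is the log2 fold change over the square root of F. Alternatives used DESeq2 1.42.0 and voom in limma 3.58.1; the scripts were tested on simulated data. The rule took Tet2, Spi1 and, with none passing, the 10 genes of smallest p in each direction averaging 1 log2 CPM or more with 4 of 4 within-range pairs in 1 direction, without predicted genes, pseudogenes, antigen receptor segments, Xist and Y-linked genes. Members and gene lists were chosen with earlier results of these data known. Promoter sequences are not shown, since no gene passed. Counting error is small at 26.0 to 33.6 M counts per library except near 1 CPM.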

Additional observations from a re-analysis of the deposited data

Results flagged for a closer look

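Both genes that passed the test of a difference between title ranges are flagged for a closer look, because the value of Tet2 KO minus WT differed between numbers 8 to 17 and numbers 1 to 7. For Ighv5-9 the difference of differences was -15.77 on the log2 scale, a fitted value that depends on the prior count, since the gene had 0 counts in both WT libraries of the lower range and in 1 Tet2 KO library of the upper range. For Igha it was -2.11. Igha also had 1265 CPM in Tet2 het library 1, against 37.4 CPM in the URE het library of the same range, so that its level varied widely among libraries of the other genotypes too.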

How the results depend on the processing

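The count of genes called between Tet2 KO and WT was 0 in the main fit and also 0 without the range term, with all 17 libraries with or without that term, with DESeq2's size factors in edgeR, with voom, without the robust option, with a sex term, and with any 1 of the 6 libraries left out (range 0 to 0). It was 25 with the 6 libraries alone (3 higher, 22 lower), 3 within title numbers 8 to 17 (Igha, Ighv5-9 and Ighv8-8), 34 within 1 to 7 (where genotype and sex coincide, Ddx3y, Kdm5d, Uty and Xist among them), 113 with DESeq2 and 42 without the filter on low counts. Of the 42, 41 (97.6%) were also among the 113 (36.3% of these), and the 113 include 20 of the 22 genes chosen by rule and 9 immunoglobulin segments. The called list entries numbered 1 with the 6 libraries alone (Ms4a2), 5 within numbers 1 to 7 (Oasl2, Hbb-bs, Rsad2 and Klf2 lower, Ccr2 higher), 7 with DESeq2 (Tcf7, Bcl3, Dntt, Cd79a, Ccl5, Ms4a2 and Tet2) and 2 without the filter (Tcf7 and Bcl3). Tet2 kept its direction in 18 of 18 alternatives, from -0.67 to -0.48, and passed in DESeq2 alone (-0.58, adjusted p = 0.0354, against 0.0354 to 1 over the alternatives). The interaction called 0 genes with all 17 libraries, 41 without the filter, and 0 to 0 with 1 library left out; it could not be fitted without Tet2 KO library 1 or WT library 3. Spi1 turned to -0.17 without the range term, with the 12 and with all 17 libraries. The other 20 genes chosen by rule kept their direction in 18 of 18 alternatives, and 19, 14 and 3 of them passed with DESeq2, without the filter and with the 6 libraries alone. They were chosen by small p and agreeing pairs in these same libraries, so these counts, and their share of the DESeq2 calls, are no independent support. Of the list medians under the alternatives, 31 moved by more than the spread between libraries and 419 did not; without WT library 3 that of the stem cell genes was 0.05. The cause of these changes was not tested. No paired analysis was possible because the labels give the libraries no replicate numbers shared between the groups.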

Other observations

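Immunoglobulin genes, a group formed after the data were seen, had lower values in Tet2 KO beyond the 2 above. Of 114 segments and constant genes tested, 96 had log2 fold changes below 0, with a median of -1.37, and in 27 of them, against 5.26% of all genes, every Tet2 KO library was below every WT library, while in 0 every one was above. Their summed level was 495, 195 and 938 CPM in Tet2 KO, against 483, 647 and 1591 CPM in WT, so that the sums overlapped. It was 2856 CPM in Tet2 het library 1.

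Replication-dependent histone genes, also grouped after the data were seen, had higher values in Tet2 KO in 54 of 60 genes tested, at a median log2 fold change of 0.56. In 5 every Tet2 KO library lay above every WT library and in 2 below, against 4.22% and 5.26% of all genes. The summed level was 3961, 1959 and 1564 CPM in Tet2 KO, against 1939, 1688 and 1807 CPM in WT, highest in Tet2 KO library 1. It was 3669, 2784 and 2417 CPM in URE het and 3417, 1693 and 3098 CPM in Tet2 het. All of these but Tet2 het library 2 lay above every WT library.

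Within 5 Mb of Tet2 on chromosome 3, a window set after the data were seen, 76 genes were tested, 5 had an unadjusted p under 0.05 (Mcub, Gm43116, Papss1, Gstcd and H2afz) and 4 did not overlap between the groups (Mcub, 4930539J05Rik, Ube2d3 and Gm42807), against 8.66% at that p and 5.26% below or 4.22% above over all genes. Mcub, a regulator of the mitochondrial calcium uniporter, had the widest of the lower values, at -2.24 ± 0.77 on the log2 scale, with an adjusted p of 0.481 by edgeR. It was near the floor, with 0.04, 0.13 and 0.23 CPM in Tet2 KO, against 1.01, 0.55 and 0.40 CPM in WT. The URE het libraries had 0.26, 0.66 and 0.23 CPM of Mcub and the Tet2 het libraries 0.40, 0.18 and 0.34 CPM.

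The Y-linked gene Eif2s3y had 0.27 CPM in Tet2 KO library 1, in which the other Y-linked genes Ddx3y, Kdm5d and Uty had 51.2, 40.5 and 22.5 CPM. In the other male Normal libraries Eif2s3y had 27.8 to 43.1 CPM.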
